A study of Mus with 12 samples.

Results

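Sprr2 genes encode small proline-rich proteins of epithelial cells, and their RNA was followed in the mouse uterus on 4 days of pregnancy. The 10 genes Sprr2a1, Sprr2a2, Sprr2a3, Sprr2b, Sprr2d, Sprr2e, Sprr2f, Sprr2g, Sprr2h and Sprr2k were taken by name, out of 58273 gene names that had an Ensembl transcript in either deposited table. A row of a table was used when its gene name held a member and its transcripts included an Ensembl transcript.

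The whole uterus was collected from pregnant ICR mice, an outbred stock, mated at an age of 60 days. No agent or altered allele was used, each library came from 1 mouse, and each of the 4 days had 3 mice. E0.5 and E4.5 (days after mating) formed the implantation stage, and E15.5 and E18.5 formed the labor stage. The study asked which RNAs follow the level of progesterone, which in mice is low just after mating, high during pregnancy and falling before birth. A whole uterus holds epithelium, stroma, muscle and, in later pregnancy, decidua and some fetal tissue, so fewer epithelial cells and less RNA per cell cannot be told apart in these libraries.

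The implantation table gave read counts and FPKM (fragments per kilobase of transcript and sequencing depth), and its libraries held between 58020989 and 70906881 counts. The labor table gave FPKM only, so the depth of its libraries is unknown. The tables were normalized separately, and no level of one was tested against a level of the other. Uterine epithelial markers were present in every library, with a summed level of 126 to 1252 FPKM over 16 genes. Several libraries stood apart. E4.5 replicate 3 had a smooth muscle sum of 208 FPKM against 804 to 1221 FPKM in the other E4.5 libraries, and its row with the oviduct gene Ovgp1 was at 69.6 FPKM against 3.59 and 4.38 FPKM. E15.5 replicate 1 had a decidua sum of 1823 FPKM against 430 and 494 FPKM. The trophoblast and yolk sac sum was 963 FPKM in E15.5 replicate 3 against 68.1 and 168 FPKM in the other E15.5 libraries, and 824 FPKM in E18.5 replicate 2 against 345 and 267 FPKM. In E0.5 replicate 2 the squamous keratins Krt4, Krt5, Krt6a, Krt6b, Krt13 and Krt14 were all at 0 counts.

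Small proline-rich proteins are built from short proline-rich repeats and are cross-linked by transglutaminases to one another and to other envelope proteins under the plasma membrane of stratified epithelia. In the uterus, Sprr2 genes are known as targets of estrogen in the luminal and glandular epithelium, which is a simple and not a cornified one. The genes lie next to each other in the epidermal differentiation complex, are near copies of each other, and share reads, so the split of reads among them is uncertain.

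The implantation table held 8 rows for the 10 genes, all on the plus strand of chromosome 3 in the coordinates of the table, which match GRCm38 (all 10 genes overlapped the RefSeq gene of the same name). Sprr2a1, Sprr2a2 and Sprr2a3 shared 1 merged row (chr3:92215799-92289247), built from 5 Ensembl transcripts and 1 assembled transcript. Sprr2b (chr3:92316620-92318085), Sprr2d (chr3:92339140-92340873), Sprr2e (chr3:92352143-92353449), Sprr2f (chr3:92365187-92366442), Sprr2g (chr3:92373915-92375229), Sprr2h (chr3:92385685-92387324) and Sprr2k (chr3:92432582-92433925) each had their own row. The type column classed Sprr2g as a polymorphic pseudogene, a gene intact in only some strains, and the other rows as protein-coding. The labor table held 7 rows for 8 of the genes, 1 of them merging Sprr2a1 with Sprr2a2, and Sprr2e and Sprr2k had no row there.

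Of the 8 rows, 6 were at or above the minimum of 0.1 FPKM on average and were tested, 4 of them through their E0.5 values alone (the Sprr2a row, Sprr2b, Sprr2d and Sprr2e). Sprr2h and Sprr2k had 0 counts in all 6 libraries and were not tested. A count of 0 allows up to 3 counts per library, so RNA below that level was not detectable at this depth.

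Sprr2f was the most abundant member. It had 317, 656 and 774 FPKM in replicates 1, 2 and 3 of E0.5, against 2.57, 2.11 and 0.370 FPKM at E4.5, from 16456, 29568 and 41022 counts and from 134, 106 and 19 counts. The lowest E0.5 library was far above the highest E4.5 library. The mean fell from 582 ± 237 FPKM (SD, n = 3) at E0.5 to 1.69 ± 1.16 FPKM (SD, n = 3) at E4.5, and the log2 fold change of E0.5 over E4.5 was 8.41 (standard error 0.91, edgeR adjusted p = 0.0205 by the quasi-likelihood method). Without E4.5 replicate 3 it was 7.93 (edgeR adjusted p = 0.00149), and without E0.5 replicate 2 it was 8.32 (edgeR adjusted p = 0.111). Ranked by FPKM among 53158 rows, Sprr2f stood at places 34, 20 and 19 in the E0.5 libraries and between places 9622 and 20775 in the E4.5 libraries.

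The merged row of Sprr2a1, Sprr2a2 and Sprr2a3 had 10240, 16425 and 14933 counts at E0.5, against 12, 1 and 8 counts at E4.5. In FPKM these were 10.5, 19.4 and 15.0 at E0.5 and 0.0110, 0.000661 and 0.00813 at E4.5, and the groups did not overlap. The log2 fold change was 10.96 (standard error 0.79, edgeR adjusted p = 0.00749). The ratio of mean counts, each scaled to its library's total after TMM adjustment, was 2021. Both rest on few E4.5 counts, and without E4.5 replicate 1, the library with 12, the log2 fold change was 11.60 (edgeR adjusted p = 0.0424). The FPKM of this row cannot be set directly against that of Sprr2f. Its counts and FPKM imply a length of 11.4 kb, against an implied 0.608 kb for the row of Sprr2f. Which transcripts make up these lengths is not given.

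Sprr2b and Sprr2d had no count in any E4.5 library. Sprr2b had 1268, 3008 and 725 counts at E0.5 (18.9, 51.8 and 10.6 FPKM), and Sprr2d had 670, 1112 and 244 counts (11.5, 22.1 and 4.11 FPKM). In both genes replicate 2 was the highest and replicate 3 the lowest. Against a floor of 3 counts per library, E0.5 was at least 593-fold higher for Sprr2b (edgeR adjusted p = 0.0319) and at least 318-fold without E0.5 replicate 2. For Sprr2d it was at least 238-fold higher (edgeR adjusted p = 0.0353) and at least 146-fold without that replicate. Without it neither passed the adjusted p, at 0.0972 for Sprr2b and 0.137 for Sprr2d (edgeR).

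Sprr2e was the least abundant of the members with reads. It had 52, 11 and 58 counts at E0.5 (0.936, 0.222 and 1.02 FPKM) and no count at E4.5. The bound was at least 13.1-fold in favour of E0.5, and the edgeR adjusted p of 0.0915 did not pass the threshold. Leaving out replicate 3 of E0.5 brought the bound to 10.4-fold.

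Sprr2g had 9.52, 14.04 and 20.5 FPKM at E0.5, against 0.790, 2.33 and 0 FPKM at E4.5, from 530, 677 and 1163 counts and from 44, 125 and 0 counts. All E0.5 libraries were above all E4.5 libraries. The E4.5 library with 0 counts was replicate 3. The log2 fold change was 3.82 (standard error 1.33, edgeR adjusted p = 0.219). Without E4.5 replicate 3 it was 3.24 and passed the adjusted p (edgeR adjusted p = 0.0227), and without E4.5 replicate 2 it was 5.14 (edgeR adjusted p = 0.220). The study's criterion, a log2 fold change of 1 or more in size and an unadjusted p under 0.05, was lost without E0.5 replicate 2, E0.5 replicate 3 or E4.5 replicate 1, with edgeR unadjusted p of 0.0530, 0.0674 and 0.0693, so it held in 3 of the 6 fits with 1 library left out.

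By the study's criterion all 6 tested rows were higher at E0.5, against 6.37% of all tested rows, and 0 were lower, against 5.82%. By the adjusted p, 4 of the 6 were higher, against 0.763%, and 0 lower, against 0.459%. Since 4 of the 6 passed the minimum through E0.5 alone, these counts are a description. In all 6 every E0.5 library was above every E4.5 library, as in 12.8% of all tested rows. The median log2 fold change of the 6 rows was 8.15 with the 3 rows without E4.5 counts at their bound, and that of all tested rows was -0.0072. Leaving out replicate 1, 2 or 3 of E0.5 left 0 Sprr2 rows past the adjusted p, while at least 5 of the 6 met the criterion each time. In these fits 0.0389%, 0% and 0.0537% of all tested rows passed the adjusted p in either direction, against 1.22% with all libraries, and the log2 fold change of Sprr2f was 8.72, 8.32 and 8.15. Leaving out E4.5 replicate 1 or 2 left 1 Sprr2 row past it, the merged Sprr2a row, with 0.0770% and 0.253% of all rows.

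**Figure D1:**
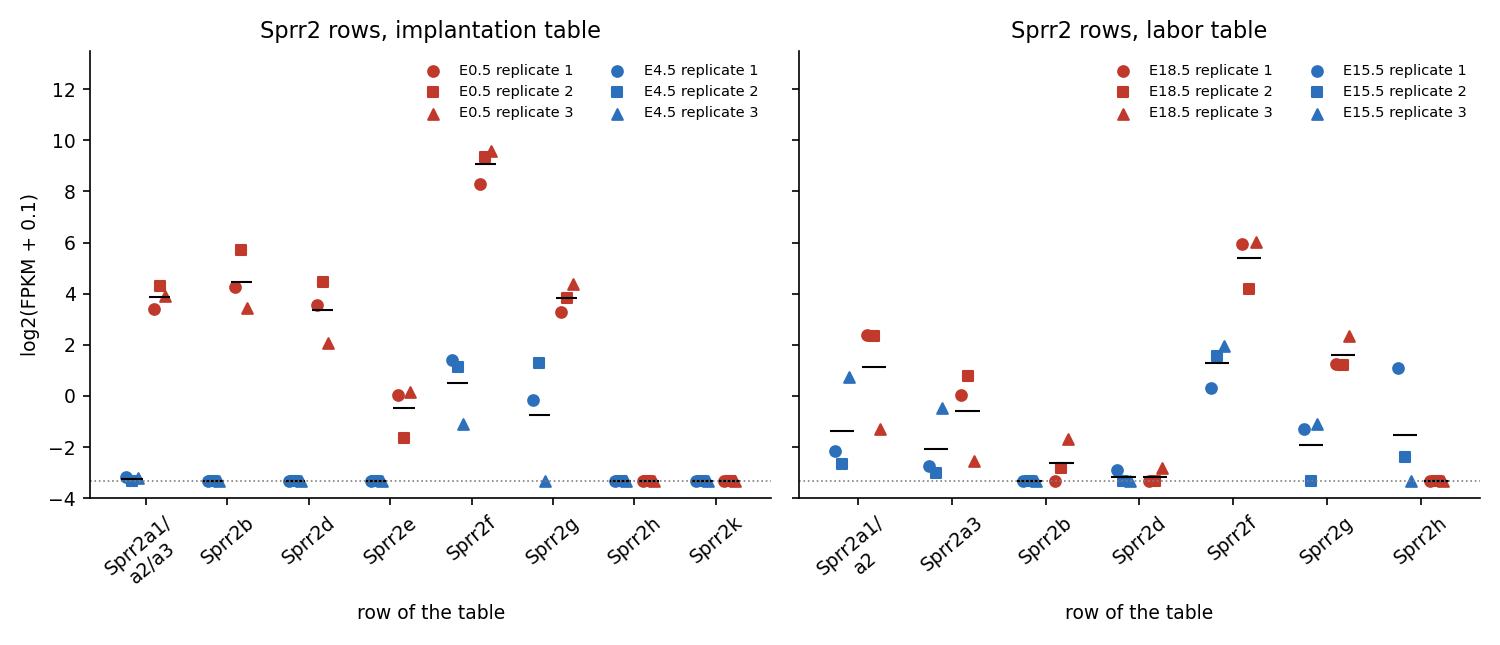
log2(FPKM + 0.1) of each Sprr2 row in each library, at the implantation stage (left) and the labor stage (right). Red symbols are E0.5 or E18.5, blue symbols are E4.5 or E15.5, marker shapes give the replicate, black lines are the means of 3 libraries and the dotted line is a value of 0. All E0.5 symbols lie above all E4.5 symbols in the 6 tested rows, and at the labor stage the groups are separate in Sprr2f and Sprr2g only.

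At the labor stage the same comparison was made between E18.5, shortly before birth, and E15.5. Sprr2f was again the leading member, with 61.2, 18.2 and 65.4 FPKM in replicates 1, 2 and 3 of E18.5 and 1.14, 2.82 and 3.78 FPKM at E15.5. The lowest E18.5 library, replicate 2, was above all E15.5 libraries. The means were 48.2 ± 26.1 FPKM (SD, n = 3) and 2.58 ± 1.34 FPKM (SD, n = 3). The log2 fold change of E18.5 over E15.5 was 4.12 on the log2(FPKM + 0.1) scale (standard error 0.60, unadjusted p = 0.000265, limma adjusted p = 0.0955). Without E15.5 replicate 1 it was 3.64 (limma adjusted p = 0.162), and without E18.5 replicate 2 it was 4.72 (limma adjusted p = 0.158). Among 33589 rows ranked by FPKM, Sprr2f stood at places 435, 1498 and 388 in the E18.5 libraries and between places 7272 and 13354 in the E15.5 libraries.

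Sprr2g had 2.27, 2.20 and 4.98 FPKM at E18.5, against 0.311, 0 and 0.369 FPKM at E15.5. The groups did not overlap, and the log2 fold change was 3.50 (standard error 0.64, limma adjusted p = 0.141). Without E15.5 replicate 2, the library at 0, it was 2.79 (limma adjusted p = 0.234), and it ran from 1.71 with a pseudocount of 1 to 4.78 with a pseudocount of 0.01. At each of these settings the unadjusted p stayed under 0.05.

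The Sprr2a rows did not separate the days. The row of Sprr2a1 and Sprr2a2 had 5.07, 4.93 and 0.307 FPKM at E18.5, against 0.123, 0.0583 and 1.56 FPKM at E15.5. E18.5 replicate 3 lay below E15.5 replicate 3. Its log2 fold change was 2.50 (standard error 1.24, limma adjusted p = 0.474). Sprr2a3 had 0.931, 1.60 and 0.0699 FPKM at E18.5, against 0.0501, 0.0240 and 0.621 FPKM at E15.5, with replicate 3 again the lowest at E18.5 and the highest at E15.5. Its log2 fold change was 1.49 (standard error 1.02, limma adjusted p = 0.596). Without E18.5 replicate 3 these values were 3.72 and 2.48, and both rows then met the study's criterion, with limma adjusted p of 0.263 and 0.336. Without E15.5 replicate 3 they were 3.55 and 2.29, and the row of Sprr2a1 and Sprr2a2 met it (limma adjusted p = 0.271). Other libraries moved the values down. The log2 fold change of Sprr2a1 and Sprr2a2 was 1.85 without E15.5 replicate 2, 1.88 without E18.5 replicate 1 and 1.9 without E18.5 replicate 2, and that of Sprr2a3 was 0.82 without E18.5 replicate 2. E15.5 replicate 3, the highest E15.5 library in both rows, also had the highest trophoblast and yolk sac sum of the labor stage, and the part of such cells in its Sprr2a values was not tested.

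Sprr2h had reads in the labor table only. The E15.5 libraries had 2.02, 0.0927 and 0 FPKM, and all E18.5 libraries listed it at 0. Its log2 fold change was -1.78 (standard error 1.07, limma adjusted p = 0.547), and 1 library, E15.5 replicate 1, held nearly all of its signal. Without that library the row was under the minimum and was not tested, and without E15.5 replicate 3 the log2 fold change was -2.68 and met the study's criterion with lower values at E18.5 (unadjusted p = 0.0365, limma adjusted p = 0.318). E15.5 replicate 1 also had the highest summed level of the squamous list at the labor stage, 99.6 FPKM against 44.4 to 75.0 FPKM in the others, of which Dmkn made up 68.9 FPKM. Of the 22 squamous rows, 3 were highest in that library (Dmkn, Krtdap at 12.6 FPKM and Krt6b at 6.02 FPKM), 10 were at 0 there, Krt4, Krt5 and Krt15 among them, and Calml3 was at 4.39 FPKM against 18.3 to 31.4 FPKM in the other labor libraries. The part of such cells in its Sprr2h was not tested. Sprr2b (0, 0.0401 and 0.208 FPKM at E18.5, 0 at E15.5) and Sprr2d (0, 0 and 0.0411 FPKM at E18.5, with E15.5 at 0.0346, 0 and 0 FPKM) were under the minimum and were not tested.

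Of the 5 tested rows at the labor stage, 2 met the study's criterion with higher values at E18.5, against 3.11% of all tested rows, and 0 met it with lower values, against 2.93%. By the limma adjusted p 0 of 5 were higher and 0 lower, against 0.0194% and 0.00647% of all rows, and 2 had an unadjusted p under 0.05. In 2 rows every E18.5 library was above every E15.5 library, against 10.9% of all tested rows. The median log2 fold change of the 5 rows was 2.50 and that of all tested rows was 0.020.

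Whether the day effect differed between the stages was tested with limma on log2(FPKM + 0.1) over all 12 libraries, as the log2 fold change of E0.5 over E4.5 minus that of E18.5 over E15.5. Sprr2f had day effects of 8.59 and 4.12 on this scale, a difference of 4.48 (standard error 1.01, limma adjusted p = 0.0419). The adjusted p was over the threshold without any 1 of 8 of the 12 libraries (all 3 of E0.5, all 3 of E18.5, and replicates 2 and 3 of E15.5), with a highest value of 0.108. The difference was 3.69 without E4.5 replicate 3 and 3.88 without E18.5 replicate 2. For Sprr2b the difference was 7.08 and for Sprr2d it was 6.66. Both genes were abundant at E0.5 and near or at 0 on every other day. They entered this test through their E0.5 values alone, so a larger effect at implantation was fixed for them and their values are a description.

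The merged Sprr2a row was paired with each labor row that shared a transcript with it. Against Sprr2a3 the difference was 5.61 (standard error 1.15, limma adjusted p = 0.0292), and against Sprr2a1 and Sprr2a2 it was 4.60 (standard error 1.40, limma adjusted p = 0.113). The latter was 3.38 with E18.5 replicate 3 left out, 3.55 without E15.5 replicate 3, and 5.25 without E15.5 replicate 2, 5.22 without E18.5 replicate 1 and 5.20 without E18.5 replicate 2. The Sprr2a3 difference passed the adjusted p in 5 of the 12 fits with 1 library left out. It missed it without any E0.5 library, E4.5 replicate 1 or 2, E15.5 replicate 3 or E18.5 replicate 1, with a highest limma adjusted p of 0.0699. Its value was 4.62 without E18.5 replicate 3, 4.81 without E15.5 replicate 3 and 6.28 without E18.5 replicate 2. Sprr2g had day effects of 4.55 and 3.50, a difference of 1.06 (standard error 1.38, limma adjusted p = 0.741). The sign of the Sprr2g difference turned without E4.5 replicate 3, at -0.24. The following counts are a description, since Sprr2b and Sprr2d are among them and the merged Sprr2a row stands in 2 of the 7 pairs. In all, 4 of the 7 pairs passed the adjusted p with a larger effect at implantation, against 1.27% of all 26597 pairs tested, and 0 with a smaller one, against 1.24%. By the study's criterion 5 had a larger effect at implantation, against 5.82%, and 0 a smaller one, against 6.55%. The median difference over all these pairs was -0.12.

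The summed FPKM of the family was 368, 763 and 825 at E0.5 and 3.37, 4.45 and 0.378 at E4.5, and it was 3.67, 2.99 and 6.33 at E15.5 and 69.5, 26.9 and 71.0 at E18.5. Its mean was 652 ± 248 FPKM (SD, n = 3) at E0.5, 2.73 ± 2.11 at E4.5, 4.33 ± 1.76 at E15.5 and 55.8 ± 25.0 at E18.5 (SD, n = 3 each). The ratio of means was 239 for E0.5 over E4.5 and 12.9 for E18.5 over E15.5. It was 234 and 13.97 without the rows that merge members, and 313 at the implantation stage from counts scaled to TMM-adjusted library totals. In counts, the family took between 0.0416% and 0.0876% of a library at E0.5, from 29216, 50801 and 58145 counts, and 190, 232 and 27 counts at E4.5.

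The make-up of the family differed between days and between units. At E0.5, Sprr2f held 86.0%, 85.9% and 93.8% of the family FPKM, and 56.3%, 58.2% and 70.6% of the family counts. The merged Sprr2a row held 2.85%, 2.54% and 1.82% of the FPKM and 35.0%, 32.3% and 25.7% of the counts. This gap goes with the length of 11.4 kb implied for that row. At E4.5, Sprr2g, with 23.4%, 52.5% and 0% of the FPKM, was the only other member above 3% of the FPKM in any library, and Sprr2f held 76.3%, 47.5% and 97.9%. Of the E4.5 counts, the merged Sprr2a row held 6.32%, 0.431% and 29.6%, from 12, 1 and 8 counts, and Sprr2f held 70.5%, 45.7% and 70.4%. At E18.5, Sprr2f held 88.1%, 67.4% and 92.1% of the family FPKM, and the row of Sprr2a1 and Sprr2a2 held 7.30%, 18.3% and 0.433%. E15.5 had no common make-up, with Sprr2h at 54.9% in replicate 1, Sprr2f at 94.1% in replicate 2, and Sprr2f at 59.7% beside Sprr2a1 and Sprr2a2 at 24.6% in replicate 3.

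**Figure D2:**
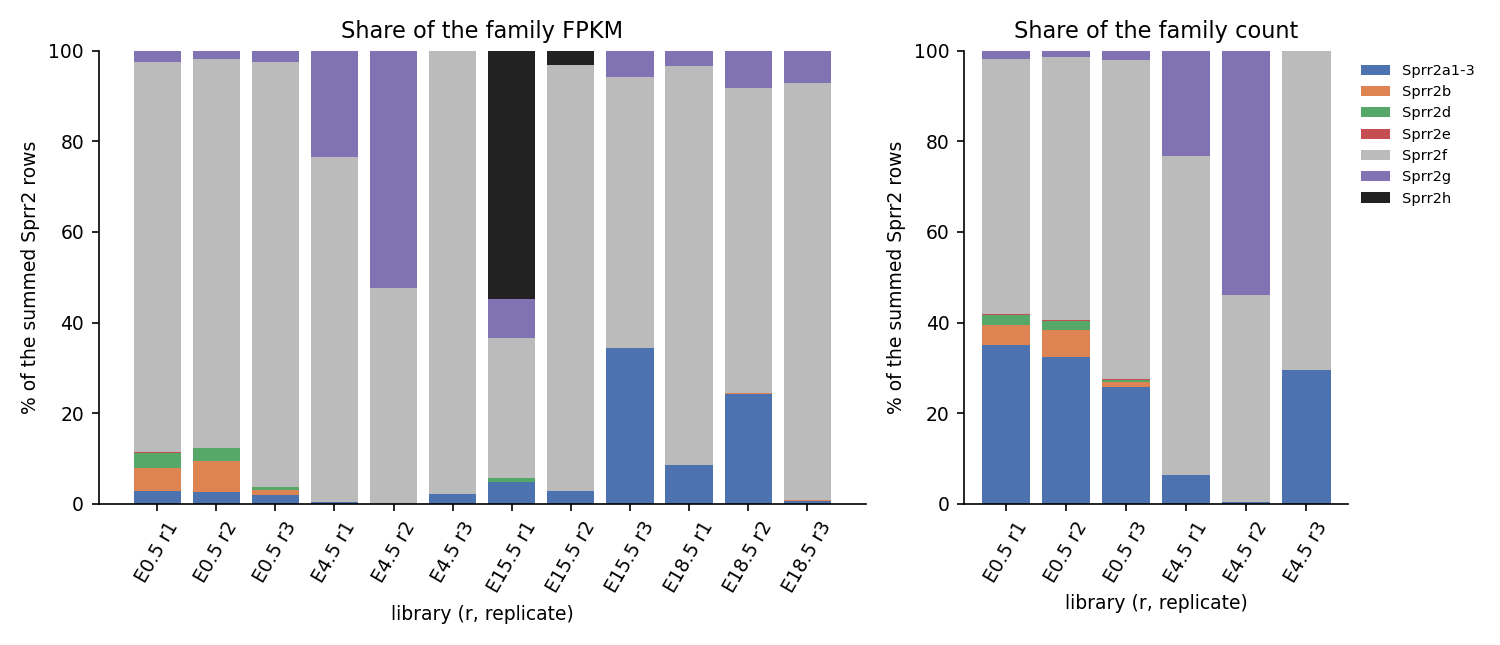
Share of each member in the summed Sprr2 rows of a library, in percent of FPKM for all 12 libraries (left) and in percent of counts for the 6 libraries of the implantation stage (right). Each bar is 1 library and each colour a member, with all Sprr2a rows joined. Sprr2f leads the FPKM in 10 of the 12 libraries, and the blue Sprr2a share at E0.5 is under 3% of the FPKM and over 25% of the counts.

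Members did not share 1 order among the E0.5 mice. Replicate 2 was the highest for the Sprr2a row, Sprr2b and Sprr2d, and replicate 3 was the highest for Sprr2e, Sprr2f and Sprr2g. Between the highest and the lowest E0.5 library the ratio was 4.88 for Sprr2b, 5.36 for Sprr2d and 4.60 for Sprr2e, and 1.85 to 2.45 for the Sprr2a row, Sprr2g and Sprr2f. At E18.5, replicate 3 was the highest for Sprr2f and Sprr2g and the lowest for both Sprr2a rows, with a ratio of 16.5 between the highest and the lowest library for Sprr2a1 and Sprr2a2 and of 22.9 for Sprr2a3.

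Squamous epithelium, which lines the vagina and outer cervix, expresses several of these genes, so its markers were read beside them. The summed level of 22 such markers was 32.7, 3.88 and 26.7 FPKM in the E0.5 libraries and 8.03 to 12.4 FPKM in the E4.5 libraries. Krt5, a basal keratin, had 4.64, 0 and 6.67 FPKM at E0.5, and Krt13, a keratin of moist stratified epithelium, had 7.31, 0 and 6.56 FPKM. Sprr2b, Sprr2d and the Sprr2a row were thus highest in the library where these keratins were at 0. Sprr2e, at its lowest there with 11 counts, varied in the same direction as the keratins. So did Sprr1a, a related envelope protein (12.5, 1.68 and 16.7 FPKM), and Sprr3 (1.19, 0 and 0.133 FPKM). Whether squamous cells contributed to Sprr2e was not tested.

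**Figure D3:**
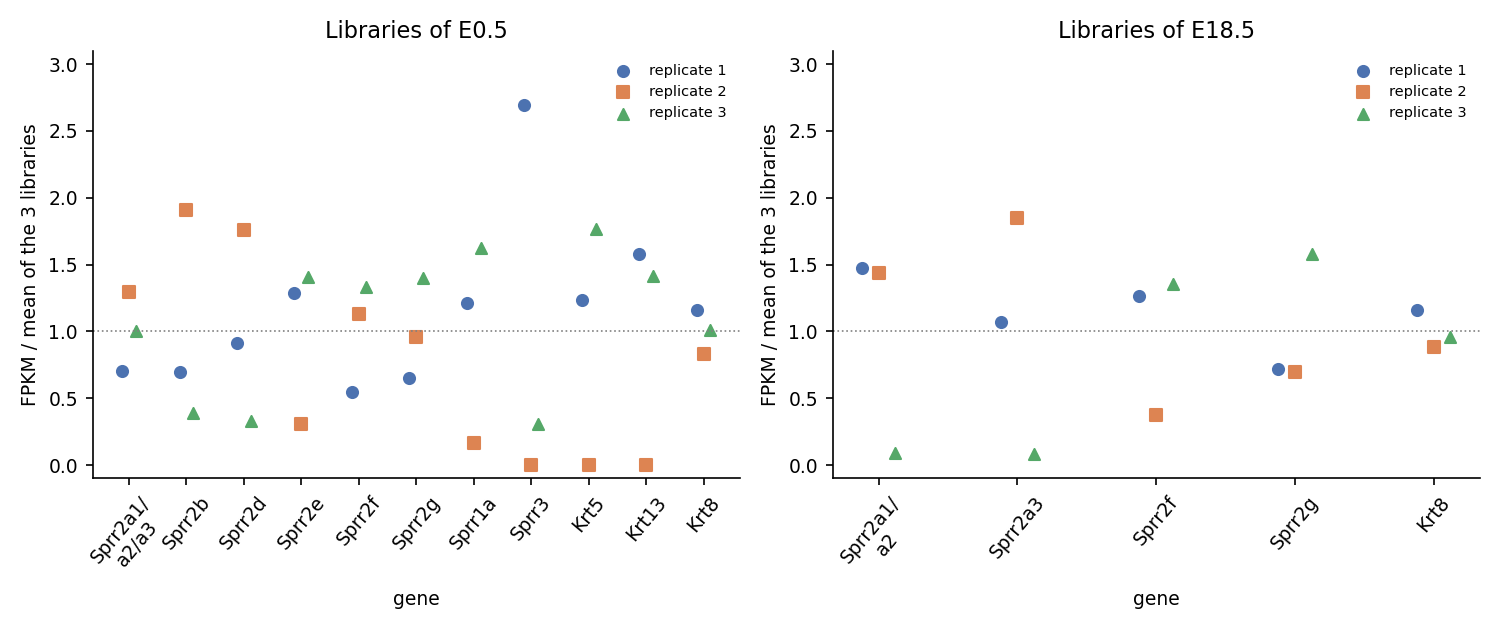
FPKM of each library divided by the mean of the 3 libraries of its day, for Sprr2 rows and for other genes at E0.5 (left) and E18.5 (right). Each symbol is 1 library and the dotted line is the mean. Replicate 2 of E0.5 is at 1.91 for Sprr2b, 0.306 for Sprr2e and 0 for Krt5 and Krt13, and replicate 3 of E18.5 is at 1.36 for Sprr2f and 0.0894 for the row of Sprr2a1 and Sprr2a2.

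The Sprr2 rows of the implantation table span 218 kb (chr3:92215799-92433925), and 21 rows overlapped this stretch. Besides the 8 Sprr2 rows there were 4 unannotated rows, made of assembled transcripts without an Ensembl identifier, and all 4 had no count at E4.5. They passed the minimum for testing through their E0.5 values alone, so their adjusted p-values are a description. The row named after Gm37087 on the minus strand (chr3:92219165-92318123), which crosses the merged Sprr2a row and Sprr2b, had 946, 933 and 2392 counts at E0.5 (edgeR adjusted p = 0.0185). A minus-strand row within Sprr2b (chr3:92317409-92317740) had 148, 830 and 117 counts, with the same library highest and the same library lowest as Sprr2b itself. A minus-strand row that crosses Sprr2e to Sprr2h (chr3:92352877-92419027) had 0, 980 and 1040 counts. Of the 4 unannotated rows only the first passed the adjusted p, and the others had edgeR adjusted p of 0.0658, 0.0709 and 0.190. Whether the libraries keep the strand of the RNA is not given in the sources used here, so reads of these rows and of the Sprr2 genes opposite them cannot be told apart.

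Annotated neighbours lay between and beyond the Sprr2 genes. Gm37087 and Gm37752, minus-strand loci of unconfirmed type between the Sprr2a genes, had 306, 614 and 924 counts and 342, 584 and 964 counts at E0.5. Their log2 fold changes were 6.52 (standard error 1.10, edgeR adjusted p = 0.0510) and 6.36 (standard error 1.12, edgeR adjusted p = 0.0552). The pseudogenes Gm5850 and Gm5851, in the same stretch, had log2 fold changes of 1.69 (standard error 0.33, edgeR adjusted p = 0.0669) and 1.52 (standard error 0.32, edgeR adjusted p = 0.0800). Before the cluster, the noncoding RNA gene Gm35439 had 0.814, 0.906 and 1.08 FPKM at E0.5, against 0.0644, 0.0512 and 0 FPKM at E4.5 (log2 fold change 4.52, standard error 1.11, edgeR adjusted p = 0.112). The pseudogene AC138676 had 44, 60 and 36 counts at E0.5 and 0 at E4.5 (edgeR adjusted p = 0.0597). In both, every E0.5 library was above every E4.5 library, as in 12.8% of all tested rows. Gm35439 and AC138676, like Gm37087 and Gm37752, passed the minimum for testing through their E0.5 values alone. At the far end, Gm9774 had 60, 76 and 93 counts at E0.5, against 43, 62 and 106 counts at E4.5 (log2 fold change 0.15, standard error 0.47, edgeR adjusted p = 0.897), and its groups overlapped. Sprr2i had 2, 7 and 11 counts at E0.5 and 0 at E4.5, and Sprr2c-ps and Sprr2j-ps had no counts.

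**Figure D4:**
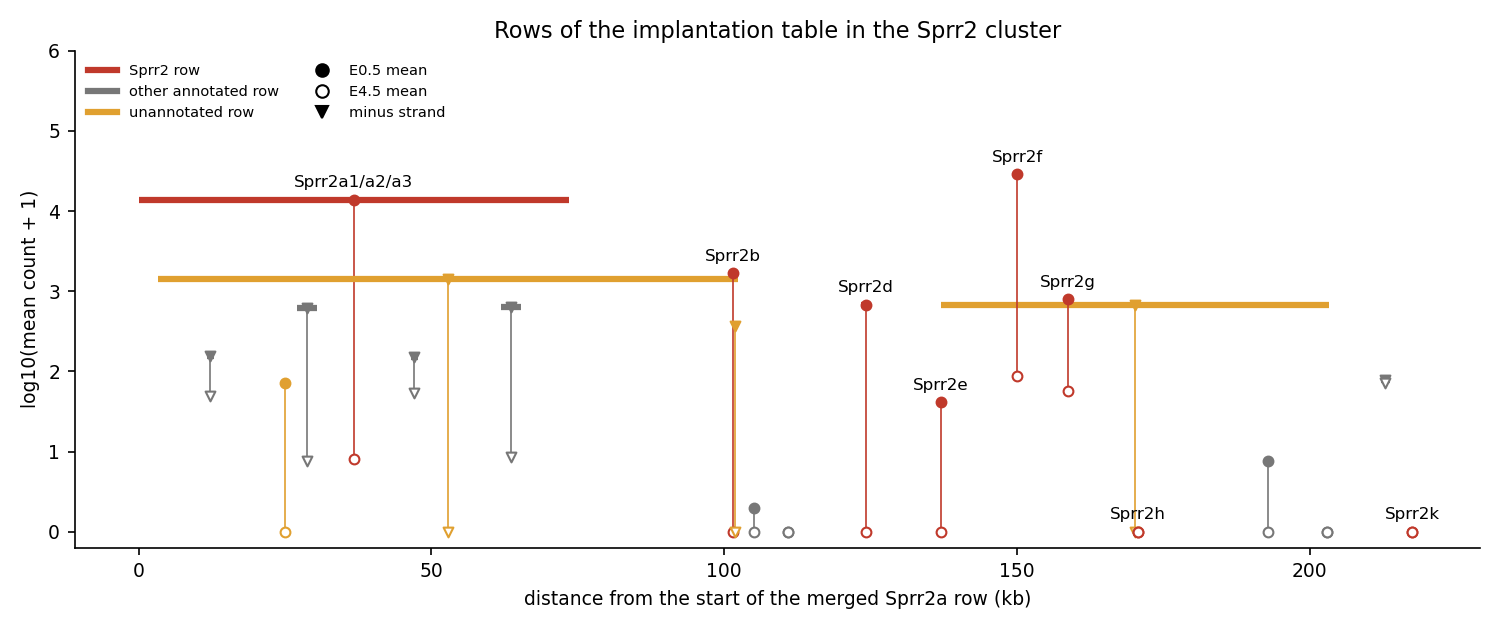
Rows of the implantation table along the Sprr2 cluster, with distance from the start of the merged Sprr2a row in kb on the x axis and log10(mean count + 1) on the y axis. Thick bars span the row at its E0.5 mean (n = 3), filled symbols are E0.5 means, open symbols are E4.5 means and triangles are minus-strand rows. The Sprr2 rows with reads (red) stand above their E4.5 values by the length of their vertical lines, and Sprr2h and Sprr2k lie at 0.

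Among other genes of the same family the pattern was partial. Of 8 other Sprr genes, 7 had a row at the implantation stage, 4 of them were at 0 in all libraries, and the 2 tested rows, Sprr1a and Sprr3, both met the study's criterion and missed the adjusted p. Sprr1a had a log2 fold change of 5.96 (standard error 1.75, edgeR adjusted p = 0.157) between E0.5 and E4.5 and 0.30 (standard error 0.40, limma adjusted p = 0.787) between E18.5 and E15.5. Sprr3 had 124, 0 and 15 counts at E0.5 and none at E4.5, so its groups overlapped.

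The other genes of the epidermal differentiation complex did not move as a block. Of 16 tested rows out of 49 at the implantation stage, 4 were higher and 2 lower at E0.5 by the criterion, and their median log2 fold change was 0.036. Here and for the lists below, the shares of all tested rows were 6.37% higher and 5.82% lower at E0.5. At E18.5 they were 3.11% and 2.93%. The merged row of S100a6 and S100a7a, calcium-binding proteins, had 7.25, 5.92 and 5.76 FPKM at E0.5 against 20.6, 19.8 and 24.6 FPKM at E4.5 (log2 fold change -1.77, standard error 0.17, edgeR adjusted p = 0.0173). At the labor stage 0 of 15 were higher and 1 lower, Tchhl1, with a log2 fold change of -1.64 (standard error 0.32, limma adjusted p = 0.146). Of 12 tested partners of the cornified envelope, 5 were higher at E0.5 and 0 lower, and only Dsp, the desmosome protein desmoplakin, passed the adjusted p, with a log2 fold change of 2.34 (standard error 0.29, edgeR adjusted p = 0.0263). Tgm2, a transglutaminase, had a log2 fold change of 1.62 (standard error 0.45, edgeR adjusted p = 0.140). Between E18.5 and E15.5, 2 of 10 were higher, Evpl and Dsp.

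Genes known to be induced by estrogen in the uterus had large day effects at the implantation stage, in both directions. Of the 13 tested, 7 were higher at E0.5 and 3 lower by the criterion, 6 and 1 by the adjusted p, and the median log2 fold change was 3.72. Lcn2, an iron-binding secreted protein, had 321, 308 and 318 FPKM at E0.5, against 2.21, 1.22 and 2.23 FPKM at E4.5 (log2 fold change 7.38, standard error 0.35, edgeR adjusted p = 0.00505). Ltf, lactotransferrin, had a log2 fold change of 5.63 (standard error 0.78, edgeR adjusted p = 0.0337). At the labor stage 5 of 13 were higher and 0 lower by the criterion and 0 passed the adjusted p from limma, with a median of 0.46. There Ltf had 247, 218 and 161 FPKM at E18.5, against 10.99, 38.2 and 64.5 FPKM at E15.5, and Lcn2 had a log2 fold change of -0.019 (limma adjusted p = 0.990), beside 4.12 for Sprr2f.

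Of 21 tested transcription factors known at Sprr promoters or in estrogen signaling, 3 were higher and 1 lower at E0.5 by the criterion. Over all tested rows these shares were 6.37% and 5.82%. Elf3, an epithelial ETS factor, had 66.0, 66.7 and 47.5 FPKM at E0.5, against 3.08, 3.79 and 3.27 FPKM at E4.5 (log2 fold change 4.16, standard error 0.21, edgeR adjusted p = 0.00505). Fos, a subunit of AP-1, had a log2 fold change of 1.89 (standard error 0.27, edgeR adjusted p = 0.0353), and Ets1, at -1.36 (standard error 0.31, edgeR adjusted p = 0.0903), was the lower one. The estrogen receptor gene Esr1 had a log2 fold change of 0.22 (edgeR adjusted p = 0.832) and the progesterone receptor gene Pgr one of -0.46 (edgeR adjusted p = 0.770). Between E18.5 and E15.5, 3 of 23 tested rows were higher and 0 lower by the criterion (Junb had 2 of the rows), with Elf3 at 2.31 (standard error 0.64, limma adjusted p = 0.235) and Fos at 1.78 (standard error 0.19, limma adjusted p = 0.0545).

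Epithelial markers were also higher on the days of high Sprr2, with smaller log2 fold changes. Of 16 markers of uterine epithelium, 7 were higher and 0 lower at E0.5 by the criterion, with a median log2 fold change of 0.90. By the adjusted p 3 were higher at E0.5. Among these Krt8, a keratin of simple epithelia, had a log2 fold change of 1.96 (standard error 0.23, edgeR adjusted p = 0.0248). At the labor stage 7 were higher at E18.5 and 0 lower, with a median of 0.96, and 0 passed the adjusted p from limma. The summed level of the 16 markers was 417 to 496 FPKM at E0.5 and 126 to 326 FPKM at E4.5, and 277 to 655 FPKM at E15.5 and 876 to 1252 FPKM at E18.5.

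Per 100 FPKM of these epithelial markers, the family had 79.5, 182.98 and 167 FPKM at E0.5, against 1.33, 1.37 and 0.300 FPKM at E4.5. The labor libraries had 5.55, 3.00 and 8.10 FPKM at E18.5, against 1.33, 0.647 and 0.966 FPKM at E15.5. The days did not overlap at either stage when the family was read per unit of epithelial markers.

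Other cell types were read from their marker lists. Among 13 neutrophil genes, 4 of 7 tested rows were higher at E0.5 by the criterion and 2 passed the adjusted p, Lcn2 and Ltf, which uterine epithelium also makes. The other 2 by the criterion were Ly6g, a neutrophil surface protein, with 0.599, 0.715 and 1.92 FPKM at E0.5, against 0.0218, 0.0667 and 0.281 FPKM at E4.5 (log2 fold change 3.05, standard error 0.95, edgeR adjusted p = 0.177), and Csf3r, the receptor of a granulocyte growth factor (log2 fold change 1.88, standard error 0.73, edgeR adjusted p = 0.261). The neutrophil markers S100a9, Retnlg and Elane were at or near 0 in all libraries of that stage, and S100a8 reached at most 1.16 FPKM, at E4.5. Of the other lists at the implantation stage, 0 of 6 oviduct and 0 of 8 smooth muscle rows met the criterion, 1 of 4 trophoblast and yolk sac rows was higher and 1 lower, 2 of 7 decidua rows were higher and 2 lower, and 2 of 15 squamous rows were higher and 1 lower. Between E18.5 and E15.5, 1 of 4 oviduct, 0 of 8 smooth muscle, 3 of 11 trophoblast and yolk sac, 2 of 7 decidua, 2 of 7 neutrophil and 2 of 16 squamous rows were higher, and 3 squamous rows were lower. Over all tested rows, 6.37% were higher and 5.82% lower at E0.5 by the criterion, and 3.11% and 2.93% at E18.5. The part of these cell types in the Sprr2 values was not tested.

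**Figure D5:**
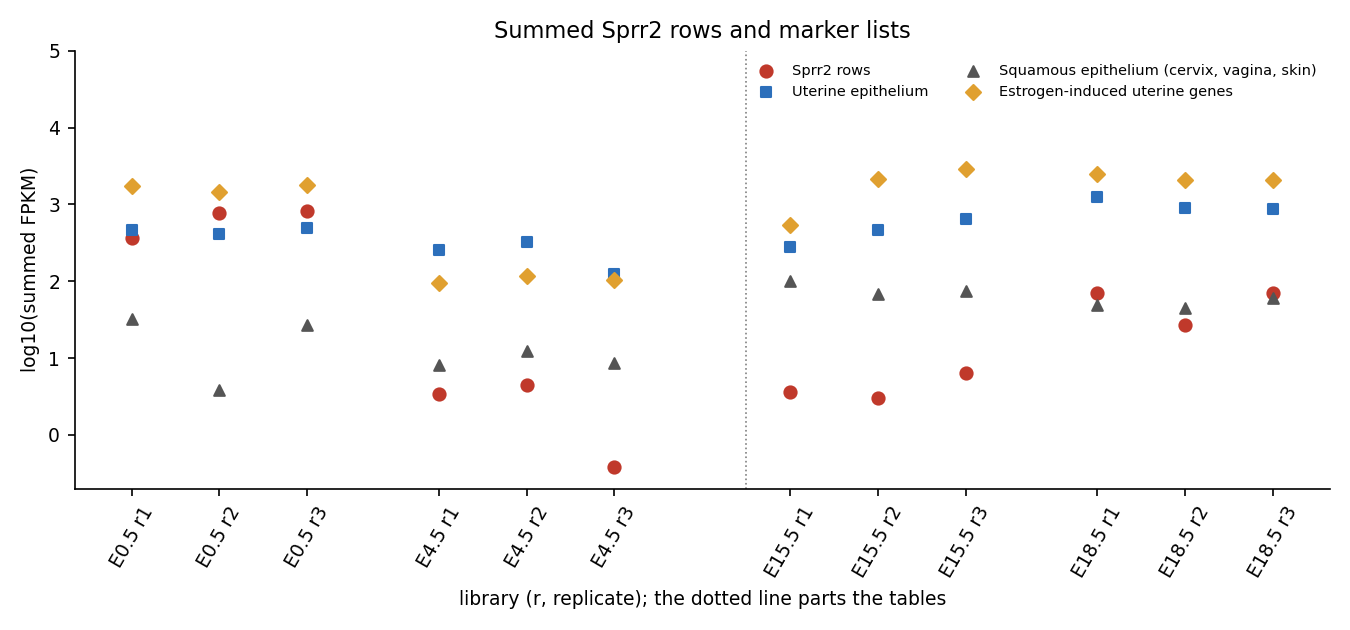
log10 of the summed FPKM of the Sprr2 rows and of 3 marker lists in each of the 12 libraries, with the tables parted by a dotted line. Each symbol is 1 library and list. The Sprr2 sum is 368 to 825 FPKM at E0.5 and 0.378 to 4.45 FPKM at E4.5, while the sum of the epithelial markers is 417 to 496 and 126 to 326 FPKM.

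The 5 protein-coding rows whose pattern was nearest to the summed family, by the root mean square difference of log2(FPKM + 0.1) centred within each stage over the 12 libraries and among 11646 rows, were Clca1 (1.10), the row of Fcgbp and 9530053A07Rik (1.20), Muc4 (1.22), Muc1 (1.58) and Lcn2 (1.64). Clca1, a secreted protein of mucous epithelia, had 178, 319 and 516 FPKM at E0.5, against 0.455, 0.918 and 0.0404 FPKM at E4.5, with the same order of libraries at E0.5 as Sprr2f. Its log2 fold change was 9.48 (edgeR adjusted p = 0.0316), and at the labor stage it was 1.92 (limma adjusted p = 0.403). Muc4, a membrane mucin, had 17.7, 18.9 and 31.2 FPKM at E0.5, against 0.429, 0.567 and 0.0967 FPKM at E4.5. All 12 libraries entered both the family sum and these rows, so the measure describes likeness and is not a test.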

How the data were processed

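The counts and the FPKM of the implantation stage and the FPKM of the labor stage were deposited by the authors as 1 gene table per stage, made with StringTie and Ballgown after trimming with Cutadapt. The submitters' processing notes also name Bowtie 0.12.2, HISAT2 2.0, StringTie 1.3.0 and the builds mm8 and mm10, without a role. The sources differ on whether poly(A) RNA was selected or ribosomal RNA was removed. How reads were assigned to near-identical genes is not given in the sources used here. The FPKM fill value of 0.0001 where the count was 0 was set back to 0.

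In R 4.3.3, edgeR 4.0.16 (TMM, quasi-likelihood) was fitted to the counts of 59732 rows and limma 3.58.1 with a trend to log2(FPKM + 0.1) of 30928 rows, after rows averaging under 0.1 FPKM had been left out. All p-values were adjusted after Benjamini and Hochberg over every tested row. A fold change on the log2(FPKM + 0.1) scale understates that of low genes. The p-values set the difference between days against a spread among 3 mice per group, moderated by a fit over all tested rows. For rows without counts at E4.5, folds are lower bounds from 3 counts per library, covering counting error only. Both tests were run on simulated data with changes placed in well-expressed rows only. Rows without counts at E4.5 were not covered by it. Pandas 2.3.3 and NumPy 2.4.6 were used in Python 3.11.15.

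The members and gene lists were chosen with earlier results of these data known. Named genes were every member row, its neighbours, up to 4 rows per list with the largest change among rows of at least 1 FPKM that met the study's criterion (else the most abundant), every other Sprr row and the 5 rows most like the family. Esr1, Pgr, Wnt7b, Mki67, Mcm2, Krt4, Krt5, Krt6a, Krt13, Krt14, Krt15, Calml3, Ly6g, Csf3r, S100a8, S100a9, Retnlg and Elane were named after their values were seen. Alternatives were DESeq2 1.42.0, other filters, scalings and pseudocounts, leaving out each library, and a replicate block.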

Additional observations from a re-analysis of the deposited data

Results flagged for a closer look

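For 2 Sprr2 pairs the day effect differed between the stages by the limma test of the difference itself, adjusted over all pairs. The log2 fold change of E0.5 over E4.5 minus that of E18.5 over E15.5 was 5.61 for Sprr2a3 (whose implantation row is the merged Sprr2a row) and 4.48 for Sprr2f. With 1 library left out, the adjusted p was under the threshold in 5 of 12 fits for Sprr2a3 and in 4 of 12 for Sprr2f. The same difference was 7.08 for Sprr2b and 6.66 for Sprr2d. These genes entered the test through their E0.5 values alone and were at or near 0 in both labor groups, so their difference is close to their implantation effect on this scale and is given as a value, not as a tested difference.

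The 4 unannotated rows inside the Sprr2 cluster overlap Sprr2 rows but were not among the Sprr2 rows compared, and they had no count in the E4.5 libraries. Summed over the 3 E0.5 libraries, the minus-strand row named after Gm37087 had 4271 counts, the minus-strand row named after Sprr2h had 2020, the minus-strand row named after Sprr2b had 1095 and the plus-strand row named after Sprr2a2 had 211. The row named after Sprr2h had no count in E0.5 replicate 1.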

How the results depend on the processing

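All Sprr2 rows kept their direction within each stage under every alternative that gave a value. The number of implantation rows past the adjusted p went from 4 to between 0 and 5 with 1 library left out, being 0 without any of the E0.5 libraries and 1 without E4.5 replicate 1 or 2, with at least 5 rows by the study's criterion each time. Over all rows, 1.22% passed the adjusted p with all libraries, 0.0389%, 0% and 0.0537% without replicates 1, 2 and 3 of E0.5, and 0.0770%, 0.253% and 6.28% without those of E4.5. DESeq2 called Sprr2e as well (adjusted p = 0.000264), and a pseudocount of 1 in limma called Sprr2g (adjusted p = 0.0372). Of all rows, 9.74% passed with DESeq2 and 1.31% with that limma fit. The number of labor rows higher at E18.5 by the criterion went from 2 to between 2 and 4, with 4 where E18.5 replicate 3 was left out and 3 where E15.5 replicate 3 was, and in the latter fit Sprr2h met it with lower values. Over all rows, in either direction, 6.05% met it with all libraries, and 7.42% and 7.82% in these 2 fits. The number of pairs whose day effect differed between the stages went from 4 to between 2 and 4 with 1 library left out, with 2 (Sprr2b and Sprr2d, which entered through E0.5 alone) where any of the E0.5 libraries, replicate 3 of E15.5 or replicate 1 of E18.5 was missing. Over all pairs 2.52% passed with all libraries and 0.94% to 5.35% with 1 left out. The difference for Sprr2g ranged from -0.24 to 2.06 with 1 library left out, being reversed at -0.24 without E4.5 replicate 3, and it was -0.55 with E4.5 replicate 3 and E15.5 replicate 1 both left out, a setting chosen after seeing the data; it passed the threshold under no setting. The cause of these changes was not tested.

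No source says that the replicate numbers mark a pairing, and same-numbered libraries did not deviate together (correlations of -0.085, 0.027 and -0.080 at the implantation stage and 0.00073, 0.0026 and -0.036 at the labor stage). With the replicate number as a block, the implantation rows past the adjusted p numbered 0 of the 6 Sprr2 rows and 0 of all 59732, with log2 fold changes of 11.01 for the merged Sprr2a row and 8.60 for Sprr2f. The pairs past the adjusted p numbered 2 (Sprr2b and Sprr2d), with 0.414% of all pairs, and the block changed no other count of calls.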
